A study of Caenorhabditis elegans with 2 samples.

Results

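All genes annotated as microRNA genes in the C. elegans assembly WBcel235 (ce11) were examined for RNA polymerase II on their chromatin. There were 261 of them among 46890 nuclear genes of all kinds. Each gene took the highest signal of any peak summit within 500 bp of its midpoint, once in the list made from the pooled reads and once in the list of each replicate. No measured value entered the rule that chose these genes, although earlier results of these data were known when it was set. The RefSeq annotation of the same assembly gives a mature microRNA for 260 of the 261.

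The assay was ChIP-seq, the sequencing of DNA pulled down with a protein, for AMA-1, which forms the catalytic core of RNA polymerase II. Whole worms at the young adult stage were used, with males and females pooled. All were of strain YL503, which has the mutation unc-119(ed3) on chromosome III and the insertion vrIs110. The insertion carries AMA-1 tagged with GFP and FLAG, followed by its own 3'UTR, under the promoter pPIE-1, and unc-119 (+) as the marker. There were 2 biological replicates of this 1 group, so no comparison between conditions was possible. The antibody is labelled ama-1, with no word on whether it recognised the tags. The promoter is that of pie-1, a germline gene, which limits what the strain can report about somatic cells if the tags were recognised. In whole worms, fewer cells of a type and less polymerase per cell cannot be told apart.

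MicroRNA genes are transcribed by RNA polymerase II into a long primary transcript, from which Drosha and its partner cut a hairpin. Dicer then cuts the hairpin to a short duplex, and an Argonaute keeps 1 strand, whose seed (bases 2 to 8) pairs with target messenger RNAs. In C. elegans many microRNA genes lie in introns of coding genes or in clusters that share a transcript, the first known members lin-4 and let-7 time larval development, and the mir-35 and mir-51 families are needed in embryos. The X chromosome, which holds many microRNA genes, is known to be transcribed little in the germline.

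The mature microRNAs below, from RefSeq for WBcel235, are shown 5′ to 3′ with the seed in capitals, because genes with the same seed differed widely in AMA-1 signal. The mir-51 family shares the seed ACCCGUA over 6 genes at 3 places, and it holds the highest signal among genes whose summit lay nearer to the microRNA than to any other annotated gene boundary.
mir-51: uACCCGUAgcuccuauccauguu
mir-52: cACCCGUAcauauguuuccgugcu
mir-53: cACCCGUAcauuuguuuccgugcu
mir-54: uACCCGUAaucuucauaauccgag
mir-55: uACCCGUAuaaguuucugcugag
mir-56: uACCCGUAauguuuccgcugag
The mir-35 family shares the seed CACCGGG over 8 genes, of which mir-35 to mir-41 lie in 1 cluster and mir-42 in another. The first and last genes of the cluster are shown with mir-42.
mir-35: uCACCGGGuggaaacuagcagu
mir-41: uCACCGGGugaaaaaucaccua
mir-42: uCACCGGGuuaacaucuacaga
The seed GACUAGA is carried by 4 genes, of which 3 are shown, and mir-44 and mir-45 encode the same mature microRNA from separate places.
mir-44: uGACUAGAgacacauucagcu
mir-45: uGACUAGAgacacauucagcu
mir-61: uGACUAGAaccguuacucauc
The seed GAGAUCA is carried by 6 genes, among them mir-80, mir-81 and mir-82, and mir-58a differs from it in the last base of the seed.
mir-80: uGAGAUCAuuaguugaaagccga
mir-81: uGAGAUCAucgugaaagcuagu
mir-82: uGAGAUCAucgugaaagccagu
mir-58a: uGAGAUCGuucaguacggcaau
The developmental timing genes carry the seed GAGGUAG of let-7 or the seed CCCUGAG of lin-4.
let-7: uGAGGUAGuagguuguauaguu
mir-48: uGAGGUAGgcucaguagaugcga
mir-84: uGAGGUAGuauguaauauuguaga
mir-241: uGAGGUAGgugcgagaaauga
lin-4: uCCCUGAGaccucaaguguga
mir-237: uCCCUGAGaauucucgaacagcu

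The signal is the authors' own value for a peak, and it was used here only to describe and rank peaks within a list. The pooled list held 30000 peaks, replicate 1 held 30000 and replicate 2 held 27106, and all 3 are relaxed lists that hold background beside peaks. Library depth is unknown, since no read counts come with the lists. A smaller list of 732 peaks, labelled as thresholded by IDR, a score of how alike peaks rank between lists, has a lowest signal of 27.5. A peak in it need not rank alike in both replicates. At mir-45, whose highest summit is in it, the highest summit near the gene ranked 8 among nuclear peaks in replicate 1 and 14059 in replicate 2. The median signal of nuclear peaks was 6.89 pooled, 4.75 in replicate 1 and 3.61 in replicate 2.

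A pooled summit lay within 500 bp of 100 of the 261 microRNA genes, or 38.3% (exact 95% interval 32.4 to 44.5%). By the same rule, 25.7% of the 19973 nuclear coding genes had a pooled summit near their midpoint, and 24.6% of nuclear bases lay within 500 bp of one. The share for microRNA genes was therefore above both, and the interval covers the sampling of genes only. That share was below the 46.2% of coding genes with a pooled summit within 500 bp of their start or end, a rule that searches both ends. The annotated microRNA genes have a median length of 95 bp. A window of 500 bp around the midpoint thus takes in both ends of a typical annotated entry. The primary transcript is longer, and its start and end were not located, so they may lie outside the window. The 100 signals ran from 3.68 to 77.2 with a median of 8.56, beside a median of 7.38 for the coding midpoints. Of the 100, 41 reached a signal of 10, 39 lay from 5 to 10, and 20 lay below 5. No summit of any relaxed list was found near 129 genes, or 49.4% of all. Of the 100 genes, 71 were above the nuclear median of the pooled list.

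Other classes of RNA gene, measured the same way, stood on both sides of the microRNA genes. A pooled summit lay near 81.5% of tRNA genes, 68.5% of small nucleolar RNA genes and 54.3% of small nuclear RNA genes. Long intergenic non-coding RNA genes, at 24.7%, and piRNA genes, at 21.1%, were below the microRNA genes. tRNA genes are transcribed by RNA polymerase III rather than II.

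A summit of the thresholded list lay near 3 microRNA genes, mir-45, mir-51 and mir-4936, or 1.15% (exact 95% interval 0.238 to 3.32%). The same share of coding midpoints was 0.666%, which is inside that interval. In tRNA genes the share was 29.7%, in small nucleolar RNA genes 20.5% and in small nuclear RNA genes 9.30%. At this threshold the microRNA genes could not be told from coding midpoints.

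Replicate 1 had a summit near 89 genes (34.1%, beside 26.6% of coding midpoints), with a median signal of 6.07. Replicate 2 had a summit near 91 genes (34.9%, beside 23.6% of coding midpoints), with a median signal of 4.80. Only 55 genes had a summit in both replicates, or 21.1% (exact 95% interval 16.3 to 26.5%), beside 11.1% of coding midpoints. A further 34 genes had a summit in replicate 1 alone and 36 in replicate 2 alone. Among the 55, replicate 1 had the higher signal at 41 and replicate 2 at 14. Across these 55 genes, some of which share a summit, the signals of the replicates correlated weakly (Spearman's rho 0.31, Pearson's r 0.27 on log2 values), which is a description across genes of the same libraries.

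Position was compared by a stricter rule than presence, so its count could not be the higher one. The highest summits of the replicates lay within 150 bp of each other at 21 of the 55 genes. Of the 100 highest pooled summits, 29 had a summit within 150 bp in both replicates, 33 in replicate 1 alone, 25 in replicate 2 alone and 13 in neither. The −log10 q-values that the authors gave these 100 summits ran from 0.229 to 3.28 with a median of 1.37, and 54 reached 1.3. A summit near a microRNA gene in the pooled list was therefore often present in 1 library, and the values of the replicates are given beside the pooled values of named genes. Each is the highest summit of that replicate within the window, which may lie at another place than the pooled summit.

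**Figure D1:**
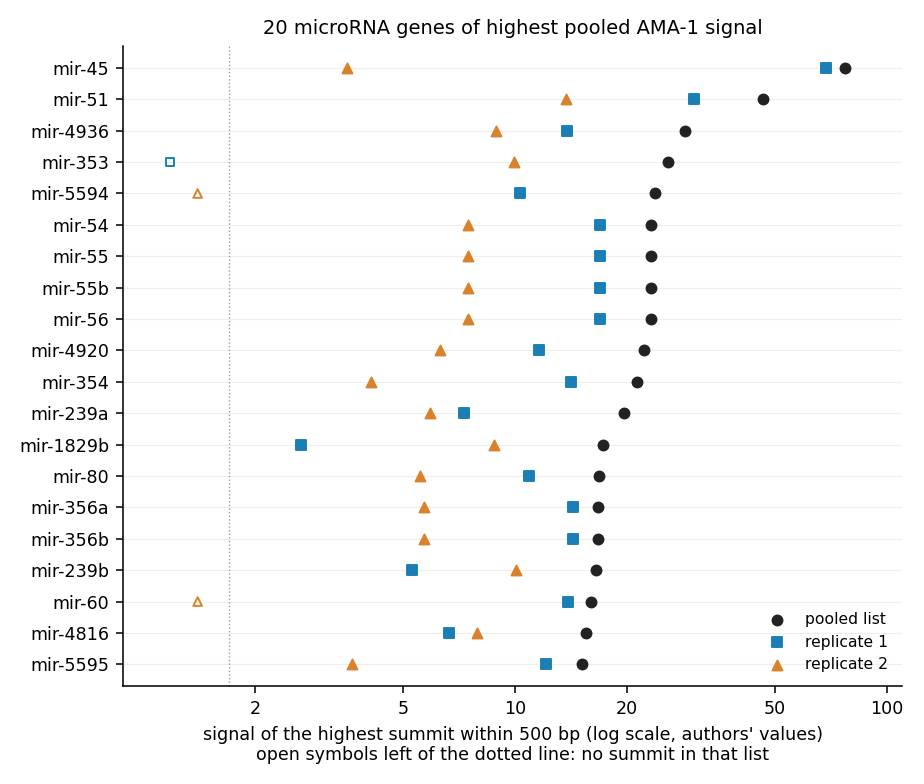
AMA-1 signal of the highest summit within 500 bp (log axis, the authors' values) at the 20 microRNA genes of highest pooled signal, in the pooled list (circles), replicate 1 (squares) and replicate 2 (triangles). Open symbols left of the dotted line mark lists with no summit within 500 bp, as for mir-353 in replicate 1, whose nearest is at 507 bp. mir-45 is highest at 77.2 pooled and 68.4 in replicate 1 but 3.53 in replicate 2, while mir-51 is high in both.

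The highest pooled signal was at mir-45, an intergenic gene at chrII:11880944-11881039. Its highest summit had a signal of 77.2 with pooled reads, 68.4 in replicate 1 and 3.53 in replicate 2. That summit lay 393 bp downstream of the gene midpoint and 10 bp from the annotated end of top-2, which encodes a type II DNA topoisomerase. A second pooled summit, of 27.5, lay 194 bp downstream and is also in the thresholded list. Beside it replicate 1 had 35.3 at 201 bp downstream, and replicate 2 had 2.23 at 154 bp upstream. The high values at mir-45 were thus in replicate 1, and the highest of them lay at a coding gene end. Its twin mir-44, which encodes the same mature microRNA at chrII:11890023-11890118, had no summit within 500 bp in any of the 3 relaxed lists. Of the other genes with their seed, mir-247 had no summit in any relaxed list, and mir-61, known from vulval cell fate, shared a pooled summit of 12.7 with its neighbour mir-250, and for mir-61 replicate 1 gave 11.6 and replicate 2 none.

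At mir-51 (chrIV:11026013-11026112) the highest summit had a signal of 46.3 with pooled reads, 30.2 in replicate 1 and 13.7 in replicate 2. The summit lay 141 bp upstream of the midpoint in the pooled list and in replicate 1, and 154 bp upstream in replicate 2. The nearest coding boundary was the end of alh-3, an aldehyde dehydrogenase gene, at 333 bp. The signal ranked 154 among all nuclear pooled peaks. Here both replicates placed a summit of high signal at the same site upstream of the gene.

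At mir-4936 (chrIII:3249151-3249260) the signal was 28.7 pooled, 13.8 in replicate 1 and 8.88 in replicate 2. The summits lay 40, 23 and 38 bp downstream of its midpoint, in the same order. The end of the coding gene Y53G8AL.4 was 94 bp from the pooled summit, so the microRNA and the gene end cannot be told apart at this spacing.

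Several of the genes that came next lay beside coding boundaries. mir-353, in an intron of the ribosomal protein gene rpl-24.1, had 25.7 pooled and 9.90 in replicate 2, at a summit 85 bp from the start of D1007.10. Replicate 1 had none within 500 bp of its midpoint, but one of 2.36 at 507 bp, on the same side as the pooled summit at 430 bp. mir-5594, in an intron of K12D12.4, had 23.8 pooled, 10.3 in replicate 1 and none in replicate 2, with the end of the nuclear pore gene npp-3 at 94 bp. mir-4920, in an intron of sph-1, had 22.3, 11.6 and 6.26, with the start of sph-1 at 228 bp. At each of these 3 the summit lay nearer to a coding boundary than to the microRNA gene. mir-354, within an exon of the ribosomal protein gene rps-20, had 21.3 pooled, 14.1 in replicate 1 and 4.10 in replicate 2, and its summit was 33 bp from the start of Y105E8A.14. mir-356a and mir-356b, annotated on opposite strands of 1 place, shared a summit of 16.7 pooled, with the end of cuc-1, a copper chaperone gene, at 106 bp. Replicate 1 had 14.3 at 232 bp downstream of mir-356a, and replicate 2 had 5.70 on the other side, at 475 bp downstream of mir-356b. mir-4816 had 15.5, 6.63 and 7.91, with the start of pigv-1 at 79 bp.

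Other genes of high signal had no coding boundary or small RNA gene within 500 bp of the summit. On the X chromosome, mir-1829b, in an intron of F20D1.3, had 17.2, 2.66 and 8.76, with its summit 13 bp upstream of the midpoint. mir-60, an intergenic gene, had 16.0 pooled, 13.9 in replicate 1 and none in replicate 2, at 347 bp downstream. mir-5595, in an intron of the chromatin remodelling gene nurf-1 on the opposite strand, had 15.2, 12.1 and 3.64, at 229 bp upstream. Of these 3, mir-5595 alone had a summit within 150 bp of the pooled one in both replicates, since the replicate 1 summit of mir-1829b lay 292 bp upstream.

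Over all 100 genes, the highest pooled summit lay nearest to the microRNA gene at 81, to a coding gene start at 10, to a coding gene end at 7 and to another small RNA gene at 2. The summit fell inside the microRNA gene itself at 16. At 65 genes no coding start, coding end or other small RNA gene lay within 500 bp of the summit. Because genes were chosen by distance to a summit, closeness to the microRNA gene is partly set by the 500 bp window. The 100 genes used 88 separate summits at 84 loci, since neighbours can share 1 summit.

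The highest summits were spread on both sides of the genes, with 54 upstream of the midpoint on the microRNA's strand and 46 downstream. The median distance was 214.5 bp, and 54 genes had the summit within 250 bp. The 2 fullest bins of 100 bp were those just upstream, with 15 genes from 0 to 100 bp and 14 from 100 to 200 bp. Just downstream, the same bins held 9 and 10 genes. At the edge of the window, mir-4927 was included at 471 bp and mir-1832a and mir-2221 at 490 bp, while mir-5546 at 515 bp, mir-264 at 552 bp and mir-8195 at 562 bp were not.

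**Figure D2:**
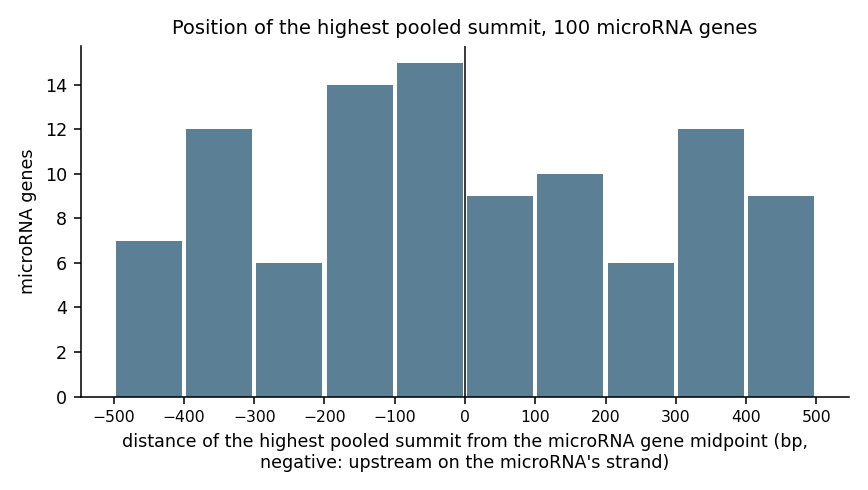
Distance in bp from the midpoint of each microRNA gene to its highest pooled summit, for the 100 genes that have one, in bins of 100 bp; negative values are upstream on the microRNA's strand. Bars count genes. The bins hold from 6 to 15 genes, and 54 summits are upstream and 46 downstream.

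Genes nested in a coding gene had a pooled summit more often than intergenic genes. Of 106 nested genes, 56 had one, or 52.8% (exact 95% interval 42.9 to 62.6%), and of 155 intergenic genes 44 had one, or 28.4% (21.4 to 36.2%). The bases themselves differed in the same direction, since 28.0% of bases inside coding genes and 19.0% of those outside lay within 500 bp of a pooled summit. Both groups of microRNA genes had intervals above the share of their own kind of base. These intervals take each gene as independent, although the 56 nested genes used 46 summits at 43 loci. The 44 intergenic ones used 42 summits at 41 loci. The order of the groups held in the lists of the single replicates, where nested genes had a summit at 39.6% in replicate 1 and 48.1% in replicate 2, and intergenic genes at 30.3% and 25.8%. The median pooled signal was 8.10 for nested and 9.74 for intergenic genes. In the single replicates the order of the medians was the reverse, with 6.31 and 5.90 in replicate 1 and 5.12 and 4.61 in replicate 2. The 3 genes of the thresholded list were all intergenic.

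The direction of the gene within its host did not separate the shares. Of 74 nested genes on the strand of the host, 40 had a pooled summit, or 54.1%, and of 32 on the opposite strand 16 had one, with overlapping intervals (42.1 to 65.7% and 31.9 to 68.1%). Of the nested genes 97 lay in introns, where 54 had a summit, and 9 in exons, where 2 had one, so nearly all that was seen of nested genes concerns introns. Polymerase on the host and polymerase on an intronic microRNA gene cannot be told apart here.

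Clustering within 2 kb did not separate the genes when taken alone. A pooled summit lay near 27 of 72 clustered genes, or 37.5% (26.4 to 49.7%), and near 73 of 189 lone genes, or 38.6% (31.6 to 46.0%). Counted by gene, clustered genes differed by setting, with 18 of 23 nested ones (78.3%) and 9 of 49 intergenic ones (18.4%) near a summit. Of the 18, the clusters of mir-35, mir-229 and mir-54 gave 7, 4 and 4, on 3, 2 and 1 summits. Of the intergenic ones without a summit, 6 and 5 came from the X clusters around mir-4807 and mir-1018. A few clusters thus weigh heavily in these shares. Lone genes differed less, at 38 of 83 nested (45.8%) and 35 of 106 intergenic (33.0%). The clustered genes share summits and are few as loci. Of 26 clusters, 11 had a pooled summit at any member and 15 had none, and 7 had one at every member. Counted by locus, 84 of 215 loci, or 39.1%, had a pooled summit.

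On the X chromosome 20 of 74 microRNA genes had a pooled summit, or 27.0% (exact 95% interval 17.4 to 38.6%), and on the autosomes 80 of 187, or 42.8% (35.6 to 50.2%). Bases near a summit were fewer on X too, at 13.7%, beside 27.0% on the autosomes, and both microRNA shares had intervals above these values. The intervals take each gene as independent, although neighbours share summits. Without summits near small RNA genes the microRNA share was 21.6% on X and 42.2% on the autosomes. The share of bases was not taken again under that setting. Nested genes on X had a summit at 10 of 18 and those on the autosomes at 46 of 88, while intergenic genes had one at 10 of 56 on X and 34 of 99 on the autosomes. X thus held fewer nested genes. Among intergenic genes the share was 17.9% on X (8.91 to 30.4%) and 34.3% on the autosomes (25.1 to 44.6%), and these intervals overlap. Among nested genes it was 55.6% on X (30.8 to 78.5%) and 52.3% on the autosomes (41.4 to 63.0%). These intervals too take neighbours as independent, and the share of bases was not split by setting on X. The median signal of X genes near a summit was 10.3, beside 8.51 for autosomal ones, and no X gene was in the thresholded list. These medians count a shared summit once per gene, and the 20 X genes used 16 summits and the 80 autosomal genes 72. On X, 4 genes took the same summit of 23.3. A tRNA or other small RNA gene lay within 500 bp of the summit at 4 of the 20 X genes and 1 of the 80 autosomal ones.

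By chromosome, a summit lay near 19 of the 33 genes of chromosome I, with 32.2% of its bases near one. Chromosome II had 22 of 49 genes beside 25.4% of bases, and chromosome III had 17 of 27 beside 34.9%. Chromosome IV had 15 of 50 beside 27.0%, and chromosome V had 7 of 28 beside 19.2%. Chromosomes III and I were highest for both the genes and the bases. On IV and V the share of genes lay closest to that of the bases, and on V it was 25.0%.

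**Figure D3:**
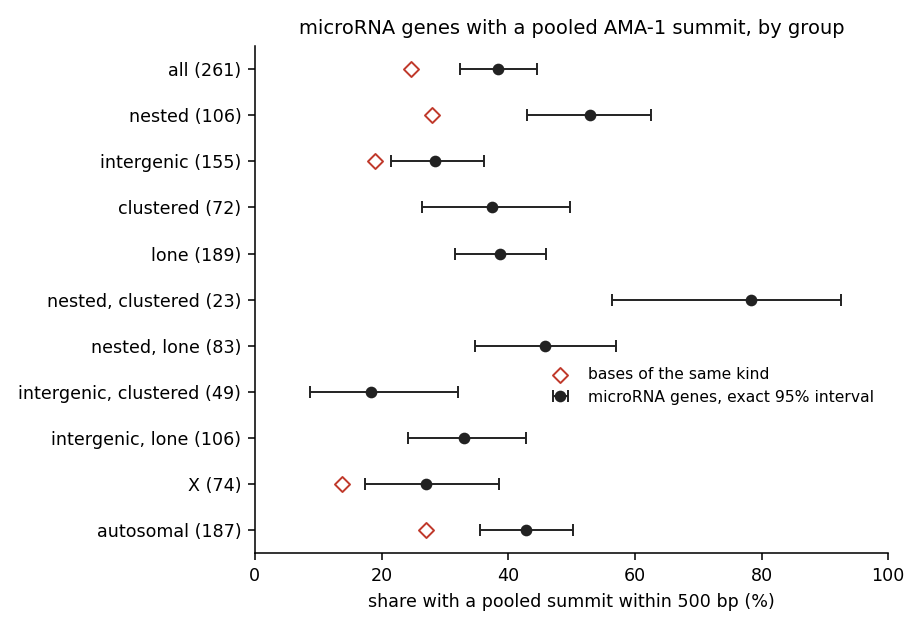
Share of microRNA genes with a pooled summit within 500 bp (percent), by group, with the number of genes in brackets; black points are shares with exact 95% intervals and open diamonds are the share of bases of the same kind within 500 bp of a pooled summit. Nested genes stand at 52.8% and intergenic genes at 28.4%, each above its diamond at 28.0% and 19.0%. The nested, clustered group at 78.3% holds 23 genes, and neighbours in it share summits. The intervals take each gene as independent.

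The 5 lists of microRNA genes with known roles are given with all their members. They were written with earlier results of these data known, so their shares are descriptions only. The germline and embryo list, which holds the mir-35 and mir-51 families with mir-43 and mir-44, had a pooled summit at 12 of 16 genes, against 38.3% over all microRNA genes. These 12 genes rested on 6 separate summits, so the count is not one of independent genes. The median of their pooled signals was 10.5.

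The cluster of mir-35 to mir-41 (chrII:11537608-11538404) lies in an intron of Y62F5A.9 on the opposite strand. mir-35 and mir-36 shared a pooled summit of 5.74, with none in replicate 1 and 4.33 in replicate 2. mir-37 to mir-40 shared one of 8.10, with 6.35 in replicate 1 at the same base. Their replicate 2 values came from other places. For mir-37 and mir-38 it was 4.33 inside the cluster, and for mir-39 and mir-40 it was 4.40 past its downstream end. mir-41 had its own, of 12.9 pooled and 8.83 in replicate 1, and the pooled summit lay 13 bp from the start of Y62F5A.9. Replicate 2 had 3.93 beside that start and 4.40 nearer to mir-41. In the pooled list and in replicate 1 the signal was highest past the downstream end of the cluster, beside a coding start. In replicate 2 it was lowest beside that start. The second cluster with that seed, mir-42 to mir-44, had no summit within 500 bp in any relaxed list, and its nearest pooled summit was 6386 bp from mir-42.

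The mir-51 family was at summits in 5 of its 6 genes. mir-52 (chrIV:14034008-14034107) had 13.3 pooled, 11.9 in replicate 1 and 16.5 in replicate 2, from 3 pooled summits of 13.3, 7.26 and 10.4 within 500 bp. The replicate 2 value lay at the pooled site, 353 bp upstream, and the replicate 1 value 15 bp upstream of the midpoint. It is a gene with no coding boundary near, since the closest annotated coding end was 8895 bp from the highest summit. mir-54, mir-55 and mir-56 (chrX:13144691-13145094) lie head to tail in an intron of F09A5.3 on the opposite strand. They shared a summit of 23.3 pooled, 16.9 in replicate 1 and 7.47 in replicate 2, which lay 188 bp upstream of mir-54. The summit thus lay before the first gene of the cluster. mir-55b, annotated on the other strand over mir-55, shared it. A further pooled summit of 20.6 lay 426 bp downstream of mir-56, with 16.8 in replicate 1 at 386 bp and none in replicate 2 within 500 bp on that side. mir-53 had no pooled summit within 500 bp, its nearest being at 764 bp, and a signal of 2.94 in replicate 2 alone, although it is in the same 2 kb cluster as mir-51.

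**Figure D4:**
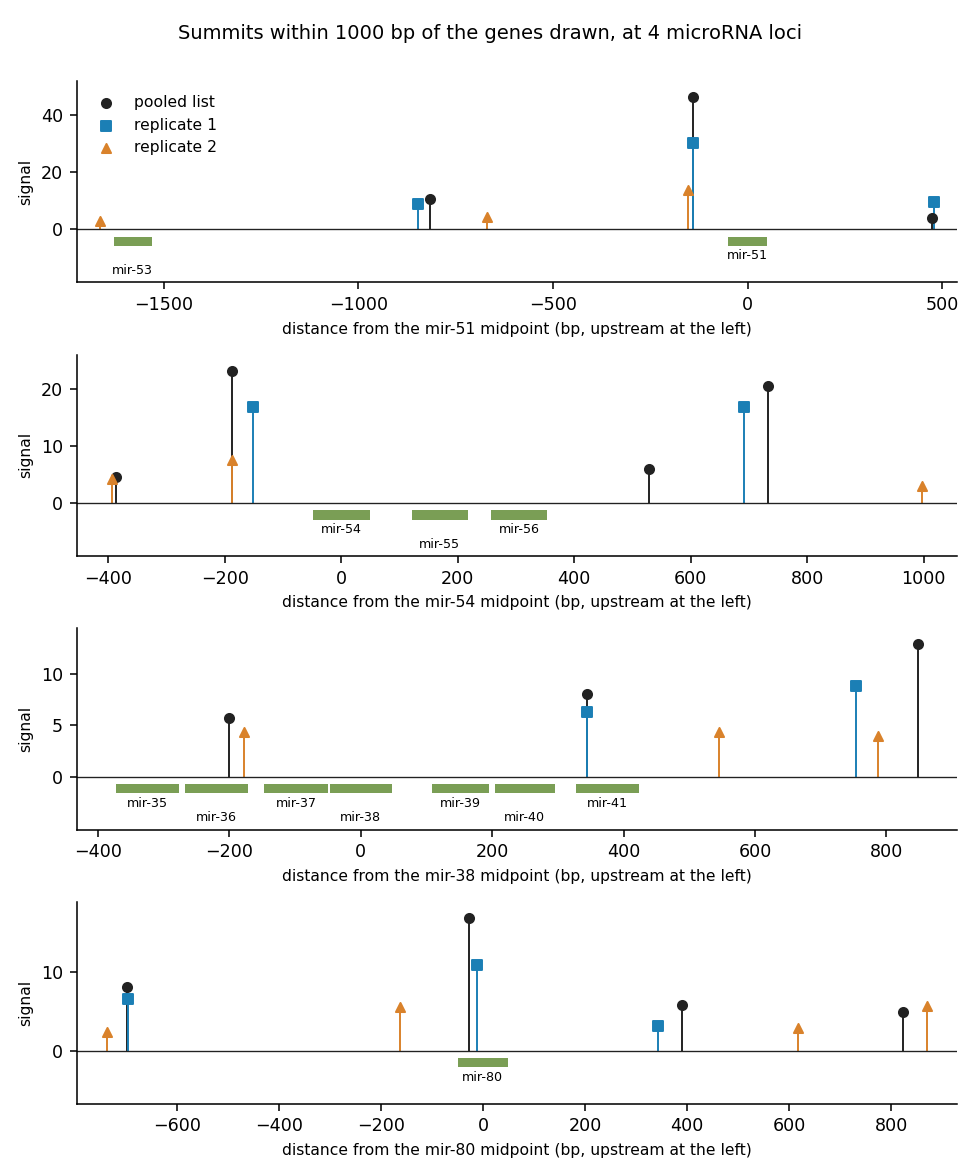
Summits within 1000 bp of the microRNA genes drawn, at the loci of mir-51 and mir-53, mir-54 to mir-56, mir-35 to mir-41, and mir-80; the horizontal axis is the distance in bp from the midpoint of the named gene with upstream at the left, and the height is the authors' signal in the pooled list (circles), replicate 1 (squares) and replicate 2 (triangles). Green bars are the annotated genes, and mir-55b, which overlaps mir-55 on the other strand, is not drawn. At mir-51 summits of all 3 lists stand 141 to 154 bp upstream, with 46.3 in the pooled list.

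The abundant somatic list had a pooled summit at 4 of 6 genes, each with a summit in both replicates. mir-80, of the large family related by seed to insect bantam, had 16.8 pooled, 10.9 in replicate 1 and 5.55 in replicate 2, at a summit 28 bp upstream of its midpoint, with no coding boundary within 500 bp. mir-58a, of the same wider family, had 13.9, 6.26 and 5.64, and mir-82 had 8.23, 6.06 and 3.002. mir-81, which shares the seed of mir-80 and mir-82, had none within 500 bp in any relaxed list, its nearest pooled summit being at 776 bp. mir-71, known for its part in lifespan, had 7.48 pooled, 2.83 in replicate 1 and 6.09 in replicate 2. mir-1, the muscle microRNA, had none in any relaxed list, and its nearest pooled summit was at 2521 bp.

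The heterochronic list, whose members time larval development, had a pooled summit at 2 of 7 genes. lin-4, let-7, mir-84 and mir-795 had none within 500 bp in any relaxed list. mir-48 had 3.72 in the pooled list, where the lowest of all signals is 3.61, with 2.34 in replicate 1 and none in replicate 2. mir-241, its neighbour on chromosome V, had 5.76 in replicate 2 alone. mir-237, which shares the seed of lin-4, had 8.38 pooled, 5.90 in replicate 1 and 2.03 in replicate 2, but a tRNA gene lay 76 bp from the pooled summit, and the replicate 2 summit was on the other side of the gene. The annotated let-7 locus is 1732 bp long, so its midpoint is not its hairpin. Measured from the midpoint of the let-7 precursor, the nearest summit was 3026 bp away in the pooled list, 8648 bp in replicate 1 and 5092 bp in replicate 2.

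The neuronal list had a pooled summit at 2 of 4 genes, and none of its genes had one in both replicates. mir-273, placed in the pathway that makes a left and a right taste neuron differ, had 4.67 pooled, 2.71 in replicate 1 and none in replicate 2. mir-791, known from carbon dioxide sensing neurons, had 4.997 pooled and none in either replicate. lsy-6, of the same taste neuron pathway, had 2.85 in replicate 2 alone, and mir-124 had 3.40 in replicate 2 alone. All of these lay below the nuclear median of their list. Of 4 mirtrons, a class whose hairpins are spliced introns that skip Drosha, mir-1019 had a pooled summit of 8.23 with 2.50 in replicate 1, mir-62 had 5.12 in replicate 2 alone, and mir-1018 and mir-1020 had none. mir-1018 was listed with the mirtrons from background knowledge, but it lies outside coding genes in the annotation used.

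**Figure D5:**
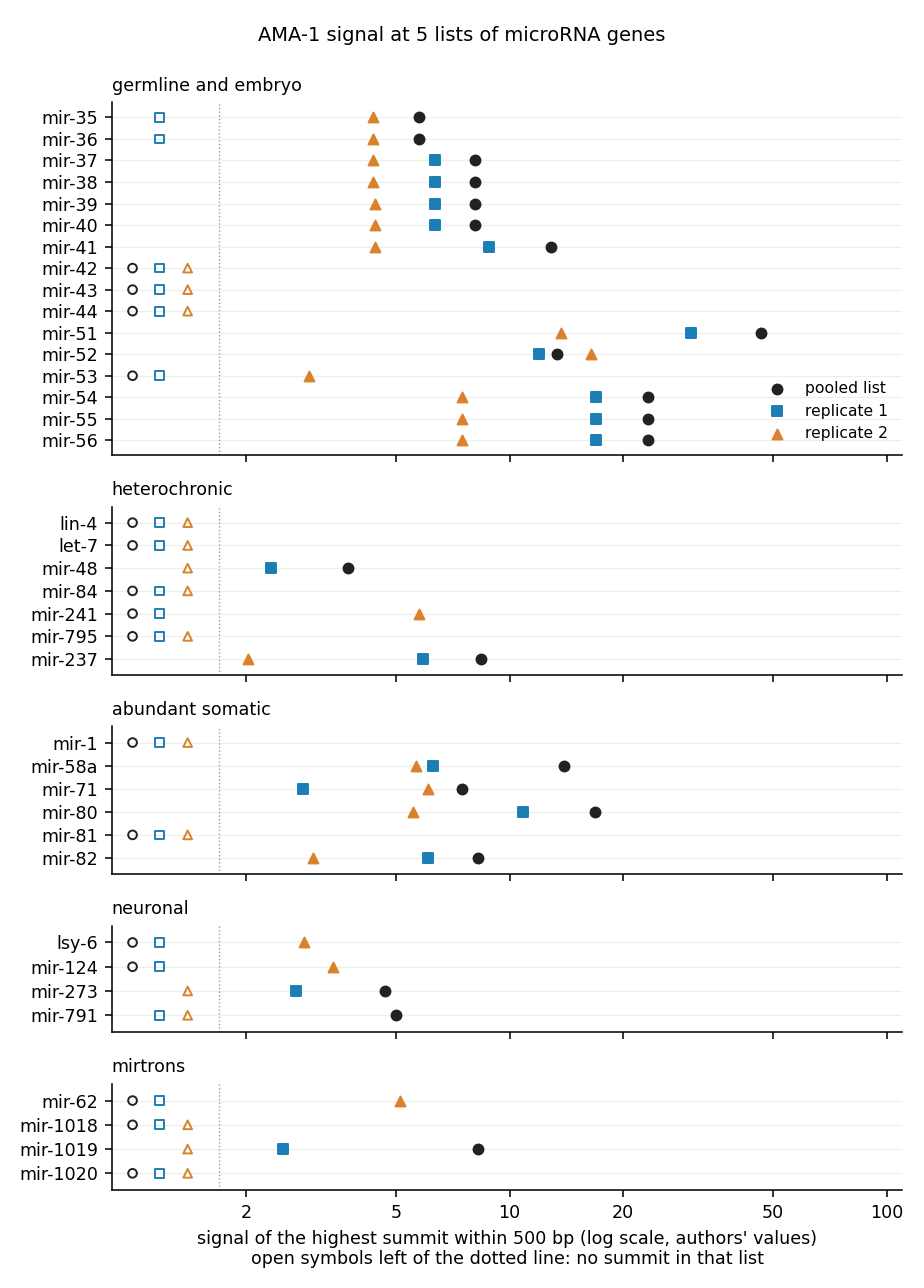
AMA-1 signal of the highest summit within 500 bp (log axis, the authors' values) at the members of 5 lists of microRNA genes, in the pooled list (circles), replicate 1 (squares) and replicate 2 (triangles); open symbols left of the dotted line mark lists with no summit there. The germline and embryo list has a pooled summit at 12 of 16 genes, the heterochronic list at 2 of 7, the abundant somatic list at 4 of 6, the neuronal list at 2 of 4 and the mirtrons at 1 of 4.

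On the X chromosome the pair mir-239a and mir-239b, known from stress responses, had 19.6 and 16.5 in the pooled list. mir-239a had 7.28 in replicate 1 and 5.91 in replicate 2, and mir-239b had 5.28 and 10.03. A small nucleolar RNA gene, C34E11.20, lay 240 bp from the mir-239a summit and 330 bp from that of mir-239b, and its part in these values was not tested. In the cluster of mir-229, mir-64, mir-65 and mir-66, in an intron of gcn-1, all 4 genes had a pooled summit of 7.59 to 8.73. Their replicate 1 values were 2.13 to 6.83, and replicate 2 had 6.42 at mir-64, mir-65 and mir-66 and none at mir-229. By contrast the intergenic X clusters around mir-4807 and mir-1018, with 6 and 5 genes, had no pooled summit at any member.

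The genes that make and use microRNAs were read at their annotated starts and ends. Of 15 that could be matched, 14 had a pooled summit within 500 bp of the start or end, beside 46.2% of coding genes. The list was written with earlier results of these data known, so its shares are descriptions only. In the thresholded list 3 of the 15 did, beside 4.0% of coding genes. By position, 10 had a pooled summit at the start and 13 at the end.

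Among the processing genes, drsh-1, which encodes Drosha, had a start signal of 30.8 pooled, 12.5 in replicate 1 and 12.01 in replicate 2. Its partner pash-1 had 6.66, 3.47 and 5.88 at the start. dcr-1, which encodes Dicer, had 13.2 pooled at its end, with 10.9 in replicate 1 and none there in replicate 2. Among the Argonaute genes, alg-1 had no summit at start or end in any relaxed list. alg-2 had 4.43 pooled at its end, with 6.55 in replicate 1 and 2.42 in replicate 2. alg-5 had 8.63 pooled at its start, with 5.28 in replicate 1 and none in replicate 2. At its end alg-5 had 9.10 pooled, none in replicate 1 and 4.30 in replicate 2. These Argonaute genes thus ran from no summit to values above the nuclear median of the pooled list. Of their GW182-type partners, ain-1 had 10.2 pooled at the start, none in replicate 1 and 10.1 in replicate 2. At its end ain-1 had 7.54 pooled, 4.17 in replicate 1 and 4.74 in replicate 2. ain-2 had 6.51 pooled at the start, 5.49 in replicate 1 and none in replicate 2. At its end ain-2 had 7.70 pooled, 9.02 in replicate 1 and 3.75 in replicate 2.

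Genes of microRNA turnover and silencing cofactors included the highest values of the list. xrn-2, a nuclease that degrades mature microRNAs, had 39.6 pooled at its start, 34.8 in replicate 1 and 12.9 in replicate 2. cgh-1, a DDX6-type helicase gene of germ granules and silencing, had 64.2 pooled at its end, 51.6 in replicate 1 and 16.3 in replicate 2. ccf-1, a deadenylase, had 18.9 at its end, with 11.1 and 10.3 in the replicates. The summits of drsh-1, xrn-2 and cgh-1 were the 3 in the thresholded list. pup-2, which adds uridines to the let-7 precursor with lin-28, had 21.5 pooled at its end, 15.2 in replicate 1 and 6.90 in replicate 2, and lin-28 had 7.30, 11.9 and 3.79 at its end. The cofactor nhl-2 had 17.0 at its end, with 14.7 in replicate 1 and 5.19 in replicate 2. paxt-1, which binds XRN-2, had 7.36 pooled at its end, none in replicate 1 and 3.34 in replicate 2.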

How the data were processed

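The authors deposited ChIP-seq peak lists for each of the 2 replicates and for pooled reads, on ce10 and ce11. In each list a peak has a signal, the authors' own value, and a −log10 q-value, per the deposited files. Per the labels, chromatin was sheared by sonication, and a control is listed that was not used here. No aligner or peak caller is named in the sources used here. The ce11 lists were used, and no position was converted from ce10. The number of sample columns left unused is 0.

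Genes came from Ensembl release 115 for WBcel235, with RefSeq symbols matched by gene ID, and mature microRNAs were read from the RefSeq annotation and genome of that assembly. Distances run from a summit to the gene midpoint, with a window of 500 bp. Nested means a midpoint inside a coding gene, and clustered means another microRNA midpoint within 2000 bp. Shares have exact (Clopper-Pearson) 95% intervals. The depth is unknown, and no test was run, since there is 1 group. Python 3.11.15, pandas 2.3.3, numpy 2.4.6, scipy 1.17.1 and matplotlib 3.10.9 were used, and the window search was tested on simulated data.

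Named were every gene with a thresholded summit, the 20 of highest pooled signal, all members of 5 lists, the genes at the window's edge, and a pathway list of 16, of which 15 matched by symbol. The members and lists were chosen with earlier results of these data known. Seeds were counted over both annotated arms of all members. mir-61, mir-247, mir-250, the mir-229 cluster and the X clusters without a summit were named after their values were seen. Settings varied were the window, the list, the distance that joins clusters, summits near small RNA genes, and each replicate alone.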

Additional observations from a re-analysis of the deposited data

How the results depend on the processing

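Widths and lists moved the counts. With a window of 250 bp, 65 genes had a pooled summit, 52 had one in replicate 1 and 26 in both replicates, and with 1000 bp 84 had one in both. The base share near a pooled summit moved with the window too, from 14.2% at 250 bp to 37.5% at 1000 bp, and the microRNA share from 24.9% to 49.4%. At 250 and 1000 bp the share was 32.1% and 67.0% for nested genes, 20% and 37.4% for intergenic, 23.8% and 49.2% for lone, and 27.3% and 54.0% for autosomal genes, with clustered genes at 50% at 1000 bp. Summits nearer another gene numbered 4 at 250 bp and 46 at 1000 bp, beside 19. The median signal was 9.61 at 1000 bp and 11.9 among the 15000 highest peaks. In the thresholded list the shares were 0% for nested, 1.94% for intergenic, 1.39% for clustered, 1.06% for lone, 0% for X and 1.60% for autosomal genes. With each replicate left out in turn, so that the list of the other stood for the pooled one, counts of 89 to 91 and medians of 4.80 to 6.07 were found, with shares of 39.6 to 48.1% for nested, 25.8 to 30.3% for intergenic, 32.3 to 33.3% for lone, 20.3 to 27.0% for X and 38.0 to 39.6% for autosomal genes, and 38.9% for clustered genes. In settings chosen after seeing the data, 29 pooled summits had a summit of both replicates within 150 bp, and 21 genes had highest replicate summits within 150 bp of each other. Of 86 alternative values, 28 moved and 58 did not. A count was called moved past a fixed fold change, and a share when outside its exact 95% interval. The median was called moved past the standard deviation of the replicate medians. Some settings change the scale or threshold of the list, so the tally does not measure how firm the results are. Nested genes had the higher share under every setting tried but the thresholded list. No paired analysis was possible because there is 1 group. With unknown depth, a gene without a summit cannot be said to lack polymerase.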

Other observations

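microRNA genes numbered below 1000, the earlier names in the public registry and on the whole the better known genes, had a pooled summit at 59 of 134, or 44.0% (exact 95% interval 35.5 to 52.9%). Those numbered 1000 or higher had one at 41 of 123, or 33.3% (25.1 to 42.4%), and the intervals overlap. A summit in both replicates was found at 33 of the 134 (24.6%) and 22 of the 123 (17.9%). The median pooled signals were 8.73 and 8.53. These numbers were taken from the gene names and split after the lists were known, and the difference was not tested.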
